A study of Mus musculus with 5 samples.

Results

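The clustered protocadherin locus of the mouse was described here by the methylation of its CpGs. Its members are the CpGs between positions 37080000 and 38010000 of chromosome 18 (mm9, positions counted from 1 throughout) that had a second count, defined below, of at least 10 in all 5 libraries. This left 1297 CpGs of 1780536 on the autosomes. Of these, 1219 fell into 112 tiles of 1 kb, each holding 3 or more of them, out of 152678 tiles made alike on the autosomes. The members were thus chosen by position and depth and not by methylation.

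Reduced representation bisulfite sequencing, which reads CpG methylation on MspI fragments and so favours CpG-rich DNA, was carried out on 2 K36M libraries, 2 K9M libraries and 1 WT library. K36M and K9M are mice with a dominant negative histone H3.3 altered at lysine 36 or at lysine 9, and both were given doxycycline at 2 mg/ml with their water. The wild-type library carries no mutant histone according to its label, and its protocol names doxycycline for the mutants alone. The labels call the cells HSCs, while the protocol has them sorted out of peripheral blood, and all DNA came from pellets of 100k cells. The promoter of the transgenes, the strain, the age and the number of animals per library are not given in the sources used here. No label calls the replicates separate animals, so the spread among these libraries may be technical, and no p below reaches beyond them. For most tiles the p of the tile test rests on an assumed counting variance and not on that spread, as given under processing.

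Clustered protocadherins are cell adhesion proteins of the cadherin superfamily that give neurons their individual surface identity. In the RefSeq gene order of GRCm38.p6, 14 Pcdha genes come first, then 22 Pcdhb genes, then Slc25a2 and Taf7, and last 22 Pcdhg genes, followed by Diaph1. In the alpha and gamma clusters each variable first exon has its own promoter and is joined to constant exons at the distal end of the cluster, whereas each beta gene is a single exon. A neuron switches on a small, largely random set of these promoters, and in cells that keep them silent the CpG-rich variable exons and their promoters are known to carry DNA methylation. Of the histone residues altered here, lysine 36 is known to recruit DNA methyltransferases when methylated, and methylated lysine 9 marks silent chromatin. The window was cut at positions 37380000 and 37750000 into 3 blocks, named alpha, beta and gamma after the known gene order. No tile was assigned to a gene, an exon or a promoter, because the gene table used here belongs to another build. The block names thus give position alone, and the gamma block may hold tiles of Slc25a2, Taf7 or Diaph1. The variable exons are close copies of each other, and the sources used here do not say how reads matching several of them were treated.

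The deposited fraction was not on the same scale in every library. For 52 window CpGs that K9M replicate 2 lists at no less than 98%, deposited levels had a median of 53.9% and 54.2% in the K36M libraries, 55.1% in K9M replicate 1, 100% in K9M replicate 2 and 54.3% in WT. The total count of the first 3 of these and of WT was therefore read as a methylated count plus a second count, and that of K9M replicate 2 as the second count alone. Levels below are the ratio of methylated to second count divided by its value at the most methylated tiles of the same library, in percent. This relative level can pass 100%. Member CpGs had a median second count of 32 and 37 in K36M, 31 and 39 in K9M and 39 in WT. At the most methylated tiles the ratio was 0.954 to 1.37 across libraries. The second count therefore cannot be unmethylated reads alone, and it may include the methylated reads. Intervals given for single libraries are 95% intervals that take the 2 counts as separate reads. They are thus approximate, and they leave out the spread between libraries.

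The protocadherin window was partly methylated in all 5 libraries. The mean relative level of its 112 tiles was 62.3% and 60.1% in K36M, 60.6% and 63.0% in K9M and 62.3% in WT. The libraries thus lay within a few points of each other, and the mutant pairs overlapped each other. Over all autosomal tiles the means were 68.6% and 69.4% in K36M, 70.8% and 73.3% in K9M and 71.0% in WT. The neighbouring stretches of equal length were lower than the window. Before the window, 103 tiles averaged 53.8% and 55.0% in K36M, 55.3% and 58.0% in K9M and 56.6% in WT, and after it, 127 tiles averaged 52.1% and 53.1%, 56.5% and 58.3%, and 55.4% in the same groups.

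The 3 blocks differed from each other in the same way in every library. The beta block, with 28 tiles, was the most methylated, at 75.0% and 74.4% in K36M, 75.8% and 75.9% in K9M and 76.1% in WT. The alpha block, with 27 tiles, stood at 60.4% and 62.5% in K36M, 58.8% and 63.6% in K9M and 60.5% in WT. The gamma block, with 57 tiles, was lowest, at 56.9% and 52.0% in K36M, 53.9% and 56.4% in K9M and 56.5% in WT. The distance between the beta block and the other blocks was thus larger than the spread between libraries, while alpha and gamma lay closer together. The plot of tiles along the window shows this order. The blocks were not matched in CpG number, with a median of 5.5 CpGs per tile in beta and 9 in alpha and in gamma. Window tiles with 3 to 9 CpGs averaged 67.2% by the mean of the 5 libraries, and those with 20 to 39 averaged 43.2%. Whether the order of the blocks holds at equal CpG number was not tested.

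**Figure D1:**
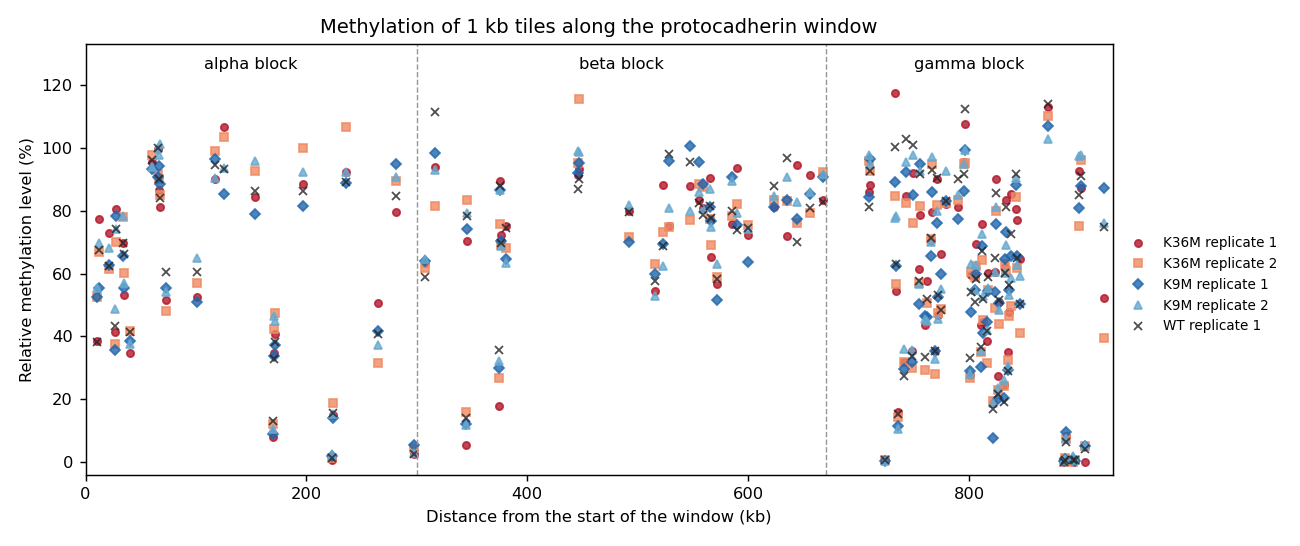
Relative methylation level (%) of the 112 tiles of 1 kb against their distance from the start of the protocadherin window (kb), with a symbol per library. Dashed lines mark the block boundaries; most gamma tiles lie between 20% and 80%, with a few close to 0% near both ends of the block.

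The order of the tiles was shared by the libraries. Over the 112 tiles, Pearson's r between any 2 libraries was 0.945 to 0.976, against 0.949 to 0.977 over all autosomal tiles; tiles are not independent replicates, and no p is given. The mean absolute difference between replicates was 7.46 points in K36M and 5.63 points in K9M, against 7.28 and 6.61 points over all autosomes. The pattern also held at the scale of single CpGs. For the 609 CpGs in tiles at 20 to 80%, the deviation of a CpG from its own tile correlated between libraries with r of 0.768 to 0.841, and these deviations had an SD of 20.8 points; over 130646 CpGs in such tiles on the autosomes r was 0.837 to 0.886 and the SD 23.1 points. The tile level therefore stands over a repeatable arrangement of lower and higher CpGs.

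The window held a larger share of intermediate tiles than the autosomes. By the mean of the 5 libraries, 55 of the 112 tiles (49.1%) lay at 20 to 80%, 14 (12.5%) below 20% and 43 (38.4%) above 80%. Over all autosomal tiles the shares were 13.2%, 20.3% and 66.5%. The gamma block, which holds 57 of the 112 tiles, had 31 of them (54.4%) at 20 to 80%, 9 below and 17 above. The alpha block had 13 of 27 (48.1%) at 20 to 80%, 4 below and 10 above. The beta block had 11 of 28 (39.3%) at 20 to 80%, 1 below and 16 above. In 46 tiles (41.1%) the level was at 20 to 80% in each of the 5 libraries separately, against 6.89% of autosomal tiles. In bulk DNA a level between the extremes cannot be told apart into a mixture of cells, of alleles or of molecules within a cell.

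Intermediate levels were found in CpG-poor and in CpG-rich tiles alike. Of window tiles with 3 to 9 measured CpGs, 44.1% (30 of 68) lay at 20 to 80%, against 15.3% of 112311 autosomal tiles. With 10 to 19 CpGs the share was 63.0% (17 of 27) in the window and 11% of 21062 tiles on the autosomes. With 20 to 39 CpGs it was 47.1% (8 of 17) in the window and 4.83% of 10903 on the autosomes, where 68.8% of such tiles were below 20%. The flanks, which share chromosome and library with the window, had 32 tiles with 20 or more CpGs. Of these, 31 were below 20% and 1 lay at 20 to 80%. Their median was 36.5 CpGs, against 28 in the 17 window tiles. No test was run on these shares, since tiles of a region are not replicates.

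**Figure D2:**
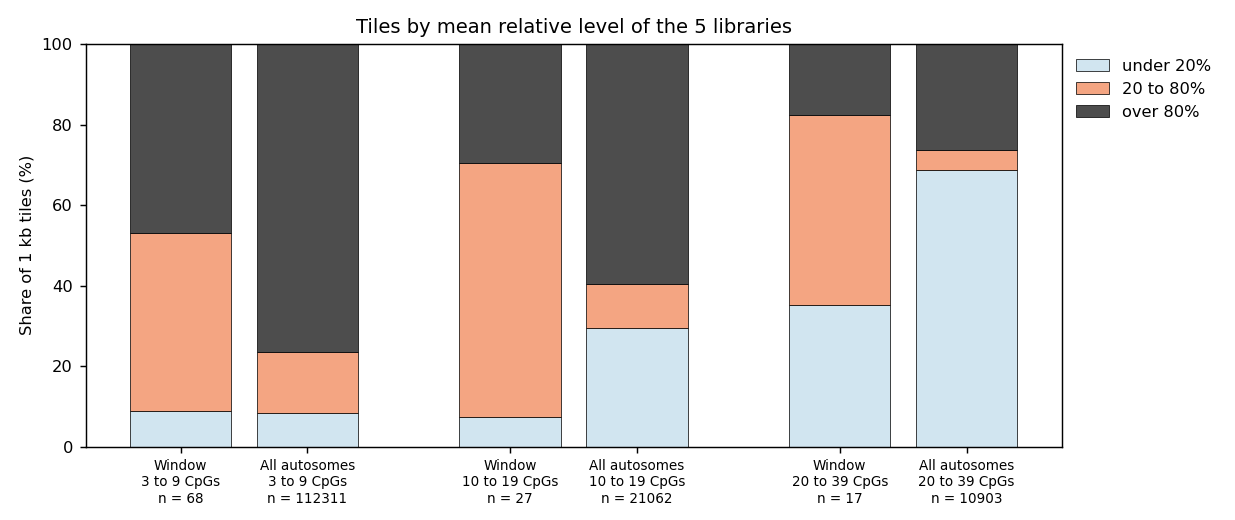
Share of 1 kb tiles (%) below 20%, at 20 to 80% and above 80% mean relative level over the 5 libraries, for the protocadherin window and for all autosomes, by the number of measured CpGs in a tile. In each of the 3 CpG classes the orange share at 20 to 80% is larger in the window, and in the class of 20 to 39 CpGs it is 47.1% in the window against 4.83% on the autosomes.

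Single CpGs at intermediate levels were likewise more frequent in every library. At 20 to 80% were 45.3% and 47.6% of the window's 1297 CpGs in K36M, 44.9% and 41.5% in K9M and 41.6% in WT. Over all autosomal CpGs the shares were 14.2% and 12.5% in K36M, 12.0% and 7.33% in K9M and 9.53% in WT. The smallest share in a window library was thus larger than the largest on the autosomes. In the beta block single CpGs were mostly high, with 54.0% and 52.2% above 80% in K36M, 59.3% and 63.7% in K9M and 62.8% in WT. Both K36M libraries were below both K9M libraries and WT in that share, and the order was the same over all autosomal CpGs, with 36.8% and 38.3% above 80% in K36M, 39.5% and 44.1% in K9M and 41.9% in WT. The smallest p such a comparison of 2 against 2 libraries can reach is 0.333.

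The 17 tiles with 20 or more CpGs, the most CpG-rich of the window, show the classes one by one. Their mean level was 43.3% and 41.7% in K36M, 43.0% and 44.0% in K9M and 44.0% in WT. All 17 hold 20 to 39 CpGs, and the 10903 autosomal tiles of that CpG number averaged 28.4% and 28.6% in K36M, 28.5% and 29.0% in K9M and 28.8% in WT. CpG-rich tiles of the window were thus more methylated than autosomal tiles of the same CpG number, by more than the range across libraries. The 32 tiles of the flanks averaged 1.99% to 2.51% across libraries. They held more CpGs, with a median of 36.5 per tile against 28 in the window, and were not matched in CpG number. Autosomal tiles with 40 or more CpGs averaged 5.85% by the mean of the 5 libraries.

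In the alpha block, the tile at 37120001 to 37121000, with 26 CpGs, stood at 34.7% and 41.6% in K36M, 38.6% and 37.6% in K9M and 41.4% in WT. The tile at 37152001 to 37153000, with 31 CpGs, stood at 51.5% and 48.2% in K36M, 55.5% and 54.2% in K9M and 60.5% in WT, with an interval of 55.0% to 66.5% in WT. Here WT lay above all 4 mutant libraries. The tile at 37249001 to 37250000, with 31 CpGs, was low, at 8.09% and 12.3% in K36M, 8.99% and 10.7% in K9M and 13.0% in WT. In the distal part of the block, 2 adjacent tiles held 70 CpGs, the run with most CpGs in the alpha block. The first, 37303001 to 37304000, with 31 CpGs, was almost unmethylated at 0.798% and 1.46% in K36M, 2.08% and 2.46% in K9M and 1.34% in WT. The second, 37304001 to 37305000, with 39 CpGs, stood at 15.0% and 18.9% in K36M, 14% and 15.2% in K9M and 15.6% in WT.

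In the beta block, the most CpG-rich tile was that at 37703001 to 37704000, with 25 CpGs. It was high in all libraries, at 81.0% and 83.4% in K36M, 81.2% and 84.7% in K9M and 87.7% in WT. The next by CpG number, at 37645001 to 37646000 with 16 CpGs, stood at 90.4% and 77.4% in K36M, 81.1% and 87.0% in K9M and 81.4% in WT. The mutant pairs overlapped in both tiles, and WT was the highest library in the first.

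In the gamma block, tiles near both ends were at one extreme or the other. The tile at 37790001 to 37791000, with 29 CpGs, was methylated at 88.3% and 92.6% in K36M, 96.4% and 95.0% in K9M and 92.5% in WT. The tile at 37803001 to 37804000, with 31 CpGs and a short way further on, was almost unmethylated, at 0.641% and 0.701% in K36M, 0.357% and 0.421% in K9M and 0.680% in WT. Toward the distal end, the tile at 37966001 to 37967000, with 37 CpGs, stood at 0.619% and 1.22% in K36M, 1.15% and 1.09% in K9M and 0.652% in WT. CpG-rich DNA at these tiles thus read as unmethylated in each library. Whether these tiles lie in Pcdhg genes or in other genes of the window is not known here. The tile that follows at 37967001, with 27 CpGs, lay at 6.44% to 9.58% across libraries, and that at 37981001 to 37982000, with 23 CpGs, was high again at 87.2% and 96.2% in K36M, 87.9% and 97.7% in K9M and 91.1% in WT.

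Between these ends, the 6 CpG-rich tiles of the gamma block were all intermediate. The tile at 37845001, with 24 CpGs, was the highest of them, at 70.8% in both K36M libraries, 65.5% and 70.0% in K9M and 71.2% in WT. The tile at 37907001 to 37908000, which has the most CpGs of the 6 with 35, stood at 50.8% and 44.0% in K36M, 50.7% and 48.3% in K9M and 51.7% in WT. The tile at 37916001, with 28 CpGs, stood at 47.8% and 46.6% in K36M, 54.9% and 53.2% in K9M and 56.4% in WT. Both K36M libraries were below the other libraries in this tile, which was not called by the test below. The tiles at 37854001 with 20 CpGs, 37897001 with 23 and 37926001 with 23 ranged over 48.5% to 66.3%, 54.4% to 60.2% and 40.9% to 64.7% across the 5 libraries. In the last of these the K36M replicates stood at 64.7% and 40.9%, further apart than any group means.

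Runs of CpGs with an intermediate mean level formed an array in the gamma block. Where CpGs no more than 1.5 kb apart were joined into runs of at least 12, the window held 39 runs, of which 27 lay at 20 to 80%, 4 below and 8 above. On all autosomes 11.7% of 31033 such runs lay at 20 to 80%, against 69.2% in the window. Between positions 37821622 and 37926614, 16 runs in succession, with 435 CpGs over 105 kb, all lay at 20 to 80%. Their levels by the mean of the 5 libraries were 39% to 74.1%, and no run in any single library went below 31.9% or above 78.1%. A run mean joins lower and higher parts, and many tiles between these positions were not intermediate, most of these being above 80%. By the mean of the 5 libraries, the tile at 37901001 stood at 16.4%. Those at 37822001, 37829001, 37835001, 37846001, 37850001 and 37922001 stood at 91.5%, 90.3%, 87.8%, 90.0%, 83.6% and 87.0%. In the longest gap between runs, every measured tile was above 80%, from 83.4% at 37869001 to 103% at 37876001. The mean over the 16 runs was 58.0% and 51.2% in K36M, 52.9% and 56.0% in K9M and 55.0% in WT, so the groups overlapped. The median distance between the starts of neighbouring runs was 5235 bases, and the array thus repeats at a spacing of a few kb, with a longest distance of 25617 bases. Of 2897 stretches of successive intermediate runs on the autosomes, 2 reached a length of 16 runs or more, this one included. The runs and the array were defined with the levels in view, and are given as a description.

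Within the array the methylation was not even along a run. In 14 of the 16 runs the Spearman rank correlation between the level of a CpG and its coordinate was positive, with a median of 0.48 over the 16 runs, given without a p since neighbouring CpGs share reads. In 4 of the 14 it was weak, at 0.03 to 0.20. In the alpha block 5 of 11 runs were positive, with a median of -0.06, and in the beta block 5 of 6, with a median of 0.21. The run at 37834247 to 37835174, with 25 CpGs and a rank correlation of 0.83, had CpG means of 23.4% to 97.9%. That at 37901740 to 37904311, with 20 CpGs and a rank correlation of 0.84, had CpG means of 6.77% to 98.3%. In known clustered protocadherin genes the variable exons are read toward the constant exons, that is, in a single direction along the cluster; the strand of the runs themselves was not looked up.

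Adjacent tiles also stepped up more often than down, mostly in the gamma block. Of 37 pairs of adjacent 1 kb tiles, the tile at the higher coordinate, called distal here, was the more methylated in all 5 libraries in 22 pairs (59.5%) and the less methylated in all 5 in 6 pairs (16.2%). Over 37218 autosomal pairs the shares were 24.0% and 24.5%. The mean step to the distal tile was 13.3 and 13.5 points in K36M, 14.6 and 13.8 points in K9M and 15.5 points in WT, and -0.159 to -0.0611 points across libraries on the autosomes. With tiles of 500 bases the window's mean step was smaller, at 8.09 and 6.37 points in K36M, 8.40 and 7.23 points in K9M and 8.38 points in WT, and the distal tile was higher in all libraries in 21 of 46 pairs (45.7%) and lower in 11 (23.9%). Among pairs with a tile at 20 to 80%, the distal tile was higher in all libraries in 64.3% and lower in 21.4% of 28 window pairs, against 43.3% and 43.8% of 7655 autosomal pairs. The gamma block gave most of this, with 17 pairs up and 3 down of 25, while the alpha block had 3 and 1 of 7 and the beta block 2 and 2 of 5. This direction was noticed after the values were seen. Coordinate order takes no account of strand, so steps up and down balance over all autosomes. The autosomal shares thus cannot show whether a step in a single direction is particular to this window.

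The 4 largest steps show how sharp the change was. In the beta block, the tile at 37424001 stood at 5.44% and 16.1% in K36M, 12.1% and 11.7% in K9M and 14.1% in WT, and the next, at 37425001, at 70.4% and 83.3% in K36M, 74.1% and 79.2% in K9M and 78.3% in WT. The 8 CpGs of the first had means over the libraries of 6.38% to 20.6%, and the 12 of the next of 32.9% to 92.7%, the lowest of them being the CpG next to the tile boundary. The tile at 37454001, also in the beta block, stood at 17.9% and 26.7% in K36M, 29.8% and 32.3% in K9M and 35.7% in WT, and the next at 89.6% and 75.8% in K36M, 86.7% and 86.5% in K9M and 87.9% in WT. In every library the distal tile of both pairs was by far the higher, and the lower tile of the second pair was lowest in the K36M libraries. Of its 5 CpGs the last, at 37454909, was high at 63.6% and 79.4% in K36M, 101% and 68.5% in K9M and 91.8% in WT, so the change lay within that tile.

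In the gamma block, the tile at 37821001 stood at 31.9% and 31.8% in K36M, 29.6% and 35.9% in K9M and 27.5% in WT, against 84.8% and 82.5% in K36M, 92.2% and 95.5% in K9M and 103% in WT in the next tile, which has 4 CpGs. The tile at 37828001 stood at 35.3% and 30.1% in K36M, 31.9% and 35.6% in K9M and 33.8% in WT, against 92.1% and 76.1% in K36M, 84.9% and 97.5% in K9M and 101% in WT in the next. The CpGs of these 2 pairs did not overlap between the tiles, with means over the libraries of at most 48.8% in the lower tiles and of at least 88.0% in the higher ones.

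**Figure D3:**
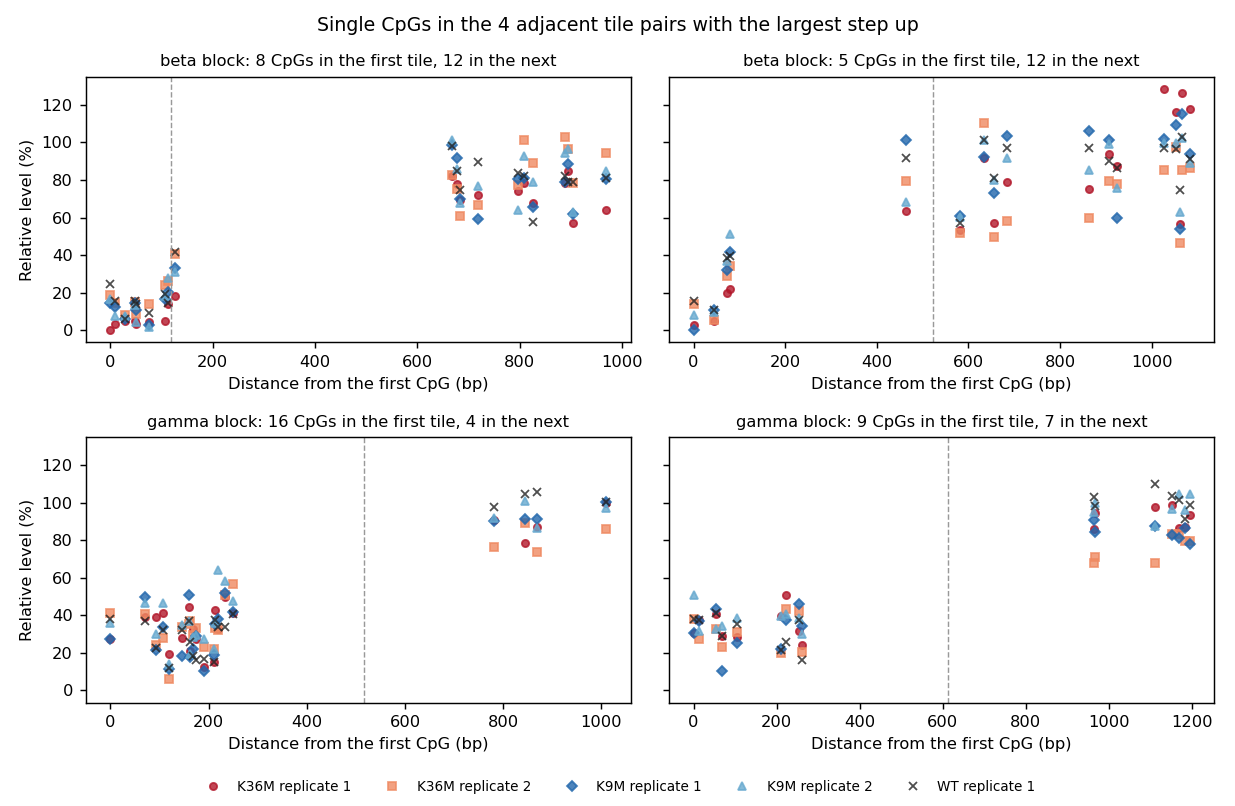
Relative level (%) of single CpGs in the 5 libraries against the distance from the first measured CpG (bp). The panels are the 4 adjacent tile pairs with the largest step to the distal tile. The dashed line lies midway between the last measured CpG of the first tile and the first of the next. In both gamma panels every library is higher to the right of the line than to its left; in the beta panels the first CpG right of the line (left panel) is still low and the last CpG left of it (right panel) is already high.

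The comparison of K36M with WT asks whether DNA methylation differed in cells with the lysine 36 mutant. In the window a single tile of 112 was called lower in K36M and none higher. Over all autosomal tiles 0.583% were called lower and 0.0216% higher, so 1 of 112 is a share near that of the autosomes. Calls needed an adjusted p below 0.05 together with a difference of 10 points or more, in a logistic model of the 2 counts with its dispersion moderated by limma and Benjamini-Hochberg adjustment over all 152678 tiles. At an unadjusted p below 0.05, without the size limit, 4 window tiles were lower (3.99% of all tiles) and 0 higher (1.45% of all tiles). The mean level of the 112 tiles was 61.2 ± 1.5% in K36M (SD, n = 2) and 62.3% in WT (n = 1), a difference of -1.14 points. This difference was not tested, and it is smaller than the SD in K36M.

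The called tile, 38002001 to 38003000, is the last measured tile of the window, distal to the array and the low tiles of the gamma block. Whether this tile lies in a protocadherin gene is not known here. Its 14 CpGs stood at 52.2% and 39.5% in K36M, 87.2% and 76.0% in K9M and 74.7% in WT, with an interval of 66.0% to 84.4% in WT. Both K36M libraries were below all other libraries. K36M was lower than WT by 28.8 points, with an adjusted p of 0.0490 in the moderated logistic model (limma), which is close to the threshold. In 13 of the 14 CpGs both K36M libraries were below WT. The exception, position 38002108, had 25.7% and 15.9% in K36M, 57.2% and 38.8% in K9M and 25.3% in WT. The second count was 31.1 and 34.2 per CpG in K36M, 27.4 and 40.5 in K9M and 39.1 in WT. Without K36M replicate 2, the lower of the K36M libraries, the adjusted p was 0.283, and the tile was no longer called. Nor was it called with the replicate number as a block (adjusted p 0.239), with a second count of at least 5 (0.0752) or 20 (0.0755), with the scale set on the top 40% of tiles (0.111), with limma on relative levels (0.665) or with levels as deposited (1), and so this call rests on the settings used.

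**Figure D4:**
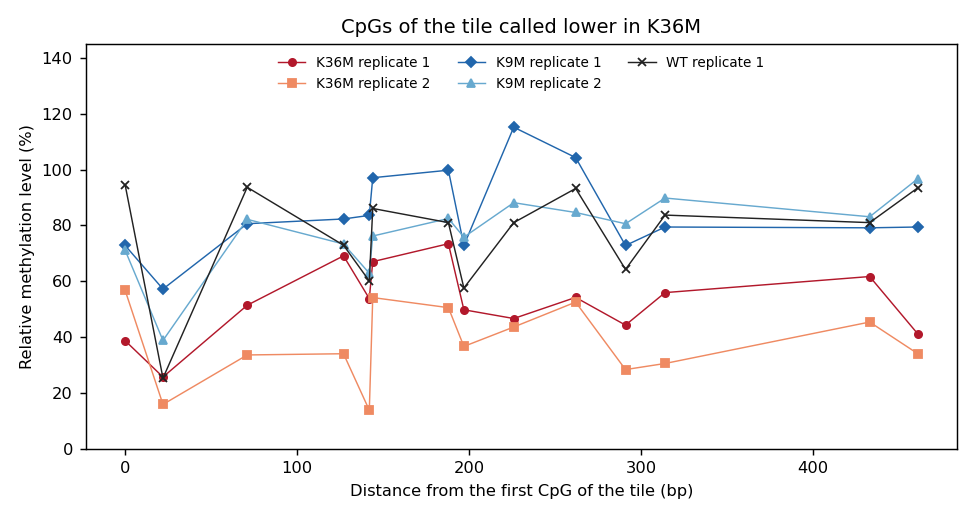
Relative level (%) of the 14 CpGs of the tile at 38002001 to 38003000, by library, against the distance from its first CpG (bp). Both K36M libraries lie below both K9M libraries at all 14 CpGs and below WT at 13 of them.

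The next tiles by p in K36M against WT were the CpG-rich alpha tile at 37152001 and the low tile of the beta step at 37454001, both described above. They were lower in K36M by 10.6 and 13.4 points, with adjusted p of 0.448 and 0.509 (limma-moderated logistic model), and neither was called. Of the single CpGs, 0 of 1297 were called in either direction, as were 0% of the 1780536 autosomal CpGs, so the single-CpG test had no calls anywhere. At an unadjusted p below 0.05, 0 window CpGs passed in either direction, against 0.228% lower and 0.0129% higher on the autosomes. Here and in the comparisons below, such autosomal shares lie far under what a p of 0.05 lets pass without any difference. The single-CpG test was thus too conservative for its lack of calls to say anything about the window's CpGs. The smallest unadjusted p in this comparison was that of position 38002312 in the called tile, with 46.7% and 43.6% in K36M and 81.0% in WT. It was followed by the CpG at 37251766, with 20.6% and 24.3% in K36M, 27.0% and 21.5% in K9M and 2.03% in WT. The WT library was below all 4 mutant libraries at the second of these, with an adjusted p of 1 against either mutant in the limma-moderated model.

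K9M against WT asks the same of the lysine 9 mutant. No window tile was called lower or higher in K9M, against 0.0373% lower and 0.0675% higher on the autosomes. At an unadjusted p below 0.05, 0 tiles were lower (1.31% of all tiles) and 1 was higher (1.71% of all tiles). This was the tile at 37967001, which had 9.58% and 7.71% in K9M and 6.44% in WT, a difference of 2.21 points with an adjusted p of 1 in the limma-moderated model. The tile at 37815001, with 8 CpGs, had 11.4% and 10.6% in K9M and 15.3% in WT. That at 37821001 had 29.6% and 35.9% in K9M and 27.5% in WT, and neither was called. Both directions together, the autosomal shares of tiles at an unadjusted p below 0.05 lay under what that p lets pass without any difference. The tile test was thus conservative in this comparison, and its lack of calls says little about the window. The mean level of the 112 tiles was 61.8 ± 1.73% in K9M (SD, n = 2) and 62.3% in WT (n = 1), a difference of -0.558 points that is smaller than the SD in K9M. No single CpG was called, and 0 of 1297 passed an unadjusted p below 0.05 in either direction, against 0.0463% lower and 0.0431% higher on the autosomes.

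K36M against K9M sets the 2 mutants side by side, which both received doxycycline and both have 2 libraries. The same tile, 38002001 to 38003000, was called lower in K36M, at 45.8 ± 9.00% in K36M and 81.6 ± 7.97% in K9M (SD, n = 2 each). The difference of -35.8 points had an adjusted p of 0.00381 (limma-moderated logistic model), and both K36M libraries were below both K9M libraries at all 14 CpGs. It was 1 of 112 window tiles, against 1.38% of autosomal tiles called lower. None was called higher, against 0.0884% of the autosomes. K9M itself differed from WT in this tile by 6.94 points, with an adjusted p of 1 in the same model. At an unadjusted p below 0.05, 5 tiles were lower (5.7% of all tiles) and 2 higher (1.97% of all tiles), shares near those of the autosomes. Among these, the tile at 37205001, with 16 CpGs, had 107% and 103% in K36M and 85.4% and 93.4% in K9M, and that at 37303001 differed by 1.14 points at a level close to 0%.

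The mean level of the window differed by -0.582 points between K36M and K9M (exact permutation test over libraries, two-sided, p = 0.667). The smallest p that 2 against 2 libraries allow is 0.333, so no such value could pass 0.05. By block, the difference was 0.264 points in alpha (exact permutation p = 1), -1.19 points in beta (exact permutation p = 0.333) and -0.685 points in gamma (exact permutation p = 1). Only in the beta block were both K36M libraries below both K9M libraries. None of the 1297 single CpGs was called, and 1 was lower at an unadjusted p below 0.05, against 0.459% of the autosomes. It was position 38002312 in the called tile, with 46.7% and 43.6% in K36M and 115% and 88.2% in K9M. No CpG was higher at that p, against 0.0503% of the autosomes.

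Tiles at intermediate levels can move in both directions, and were compared on their own, with the class set by the library or libraries outside the comparison. In the 56 window tiles at 20 to 80% in WT, the mean level was 57.7% and 53.6% in K36M, 54.5% and 57.1% in K9M and 55.8% in WT. The mutants overlapped, with a difference of -0.163 points. In the 21579 autosomal tiles at 20 to 80% in WT, the means were 57.0% and 57.5% in K36M, 62.5% and 66.5% in K9M and 60.4% in WT, a difference of -7.20 points. Both K36M libraries were below both K9M libraries in 11 of the 56 window tiles (19.6%), against 44.1% of the autosomal tiles, and above both in 8 (14.3%), against 8.85%. The level of the window tiles minus that of the autosomal tiles was 0.67 and -3.94 points in K36M, -7.98 and -9.38 points in K9M and -4.54 points in WT. The mutants did not overlap in it, and differed by 7.04 points (exact permutation test, two-sided, p = 0.333, again the lowest value possible with 2 libraries on each side). Window and autosomal tiles were not matched in CpG number here. Of those at 20 to 80% in WT, 30 of 56 in the window and 18614 of 21579 on the autosomes held 3 to 9 CpGs. Whether the difference holds at equal CpG number was not tested.

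**Figure D5:**
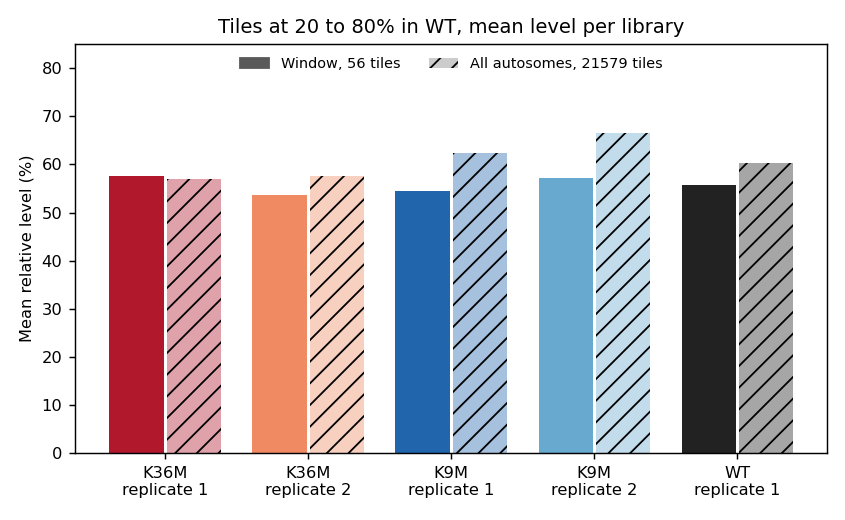
Mean relative level (%) per library of tiles at 20 to 80% in WT, for the 56 window tiles (plain bars) and 21579 autosomal tiles (hatched bars). The hatched bars are lower in K36M, at 57.0% and 57.5%, than in K9M, at 62.5% and 66.5%, while the plain bars of the mutants overlap. Window and autosomal tiles are not matched in CpG number.

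The same held against WT. In the 57 window tiles at 20 to 80% in K9M, the mean level was 57.7% and 53.4% in K36M and 55.8% in WT, a difference of -0.221 points, against -5.53 points in 17736 autosomal tiles. Both K36M libraries were below WT in 16 of the 57 tiles and above it in 16 (28.1% each), against 54.2% below and 18.6% above on the autosomes. In the 58 window tiles at 20 to 80% in K36M, K9M differed from WT by -0.570 points, with both K9M libraries below in 21 tiles and above in 17, against a difference of 1.93 points in 26596 autosomal tiles with 25.3% below and 40.4% above. Over all 112 tiles, both K36M libraries were below WT in 37 tiles (38.8% of all autosomal tiles) and above in 29 (25.1%). Both K9M libraries were below WT in 40 (27.5% of all autosomal tiles) and above in 37 (37.3%). Both K36M libraries were below both K9M libraries in 26 (29% of all autosomal tiles) and above in 16 (12.9%). The comparisons share the libraries of a group, and the difference between window and autosomes was not tested against WT, which has 1 library. In these comparisons, too, window and autosomal tiles were not matched in CpG number.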

How the data were processed

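Per the labels' protocols, 10 to 50 ng of DNA per sample was made into MspI-based libraries with bisulfite conversion and 12 cycles of amplification. Tools listed in the submitters' processing notes are cutadapt and BSMAP, with mm9 as the build; versions, settings and read deduplication are not given in the sources used here. Each CpG of the deposited tables has a methylation fraction and a total count. The reading of these totals given above is inferred from the values and is not stated by the authors. The methylated count was the rounded product of the deposited fraction and the total count; the product was whole within 0.01 in 100% of CpGs in 4 libraries and 89.2% in K9M replicate 2. Deposited total counts summed to 133165295 and 165100774 in K36M, 140793468 and 111738339 in K9M and 174743796 in WT.

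CpGs whose second count reached 10 in every library were kept. The relative level is the ratio of summed methylated to summed second counts of a tile over the median ratio of the tiles ranked in the top 20%, which was 1.22 and 1.26 in K36M, 1.37 and 0.954 in K9M and 1.23 in WT. Differences were tested per 1 kb tile and per CpG with a logistic model of both counts over all 5 libraries, with the log of that ratio as offset. The model takes the 2 counts as separate reads, which the inferred second count may not be. Its dispersion, with 2 residual degrees of freedom that come from the mutant pairs alone, was moderated with limma 3.58.1 (R 4.3.3). It was not allowed below 1, and 22.7% of tiles were above 1. In the other tiles the p rests on the counting variance that the model assumes. All p-values of this model were adjusted after Benjamini and Hochberg. Other values were computed with Python 3.11.15, NumPy 2.4.6, SciPy 1.17.1 and pandas 2.3.3. The model was also run on simulated counts, drawn as 2 separate counts with a dispersion of 1 or more. Real counts may differ in both respects, so that run does not show how the model performs here.

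Named tiles are those called, the 3 with the smallest p in each comparison, the 2 with most CpGs per block, and the 3 highest and 3 lowest with 20 or more CpGs, with the 3 CpGs of smallest p per comparison; the other tiles with 20 or more CpGs, the array and the steps were named after their values were seen. The window, blocks and lists were chosen with earlier results of these data known. Alternatives were other depth, tile and scale settings, limma on levels, the replicate number as a block, and each mutant library left out.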

Additional observations from a re-analysis of the deposited data

How the results depend on the processing

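The lower call of 1 tile in K36M against WT was lost, leaving 0 tiles, with a second count of at least 5 or of at least 20, with the scale set on the top 40% of tiles, with levels as deposited, with limma on relative levels, with the replicate number as a block and without K36M replicate 2. Leaving out each mutant library gave 0 to 1 tiles. Its adjusted p ran over 0.0130 to 1 under these alternatives of the limma-moderated model and limma on levels. The lower call in K36M against K9M was lost, leaving 0, only with levels as deposited and with limma on relative levels, and kept under the other alternatives run, the fit without WT included. With levels as deposited, in which K9M replicate 2 is on another scale, the mean of the window differed by 11.2 points in K9M against WT and by -11.6 points in K36M against K9M. Without a mutant library, the mean difference ran over -2.20 to -0.0819 points in K36M against WT, -1.78 to 0.668 points in K9M against WT and -1.81 to 0.643 points in K36M against K9M. Same-numbered libraries deviated together with a correlation of 0.0773 over all tiles and 0.229 over the window's, and the labels do not tie the numbers to an animal or a batch, so they were not taken as pairs; with the replicate block, the called tile had an adjusted p of 0.239 in K36M against WT and 0.00824 in K36M against K9M (limma-moderated). Of 544 differences of named tiles under the alternatives, 37 changed sign, none of them a called one; 9 of these arose with levels as deposited, where the tile at 37205001 differed by -14.9 points in K36M against K9M (15.6 points otherwise), and the other 28 moved by at most 6.49 points. The mean differences of the window changed sign under some alternatives but moved by less than the spread between replicates, except with levels as deposited. The single WT library, 2 residual degrees of freedom, the floor on the dispersion and the depth per CpG limit what these tests could call.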
